A study of Mus musculus with 12 samples.

Results

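The 55 genes described here encode the machinery that copies and divides the genome. They were taken as a list of mouse symbols, each matched to its Ensembl identifier in the count table, and all 55 were found among the 54532 identifiers. All 55 also passed the filter on low counts, with 31 to 3377 counts in any library, and 17473 genes were tested in all. Of the 55, 18 act in DNA replication, 27 in mitosis, 6 are cyclins or the kinase Cdk1, and 4 are transcription factors. The rule uses gene names and no measured values, but the list was chosen with earlier results of these data known.

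Whole lung was profiled by RNA sequencing of poly(A) RNA in 4 groups of 3 libraries. CKO_CRE and CKO_PBS lungs came from Cc10-Cre;Rhoafl/fl mice, which carry floxed alleles of the small GTPase gene Rhoa, and were given CRE or PBS. WT_CRE and WT_PBS lungs came from Cc10-Cre mice given CRE and PBS, so every mouse in the study carries the Cre transgene. CRE is a treatment label that is not spelled out and is distinct from the recombinase. Cc10 is the marker protein of club cells, the secretory cells of the airway lining, so deletion would be limited to cells that express Cc10 and cannot be read from whole lung. The labels give no age, dose or time, and 1 batch number for all libraries. The series title places the study in allergic airway inflammation, and the comparisons ask how CRE and the genotype change the lung transcriptome. Beyond their numbers, the labels do not say whether replicates came from separate animals, and p-values measure the spread between these samples.

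Library totals ran from 16250674 to 21559210 counts. By Y-linked counts, WT_PBS held 3 male libraries, CKO_PBS 2 males and 1 female, and WT_CRE and CKO_CRE 1 male and 2 females each. The tissue label was checked with marker genes, and sums over 6 or 7 markers ran from 19000 to 28700 CPM (counts scaled to library size) for type 2 alveolar cells, 1560 to 3750 CPM for type 1 alveolar cells, 2390 to 4820 CPM for endothelium and 1160 to 5790 CPM for club cells. One library stood apart among the CKO_CRE lungs. CKO_CRE replicate 2 had the highest level of its group for all 55 genes, and the results that most depend on it are given with and without it.

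A dividing cell first licenses its replication origins by loading the MCM helicase, then copies its DNA in S phase under E2F transcription factors, cyclin E and cyclin A. It next enters mitosis under Cdk1 and cyclin B, lines up chromosomes on the spindle through kinetochores, and separates them once the anaphase-promoting complex is released. Transcripts of these genes are known to be made in waves, replication genes before mitotic genes, and to be low in resting cells. In the lung most cells rest, and in allergic inflammation airway epithelium, macrophages and lymphocytes are known to divide.

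All 55 genes were higher with CRE in both genotypes. In CKO lungs 55 of 55 were called higher at an adjusted p below 0.05 (edgeR quasi-likelihood test, Benjamini-Hochberg over all tested genes), where 20.6% of all tested genes were called higher. In WT lungs 55 of 55 were called higher, against 28.6% of all tested genes. The median change of the 55 was 3.38-fold in CKO lungs (log2 1.76, from 0.72 for Mcm4 to 2.57 for Cdk1) and 4.48-fold in WT lungs (log2 2.16, from 1.03 for Mcm4 to 3.14 for Ube2c). The median over all tested genes was 0.00 and 0.01 on the log2 scale in those comparisons. Adjusted p ran from 3.22e-05 to 0.00327 in CKO lungs and from 5.14e-06 to 0.000177 in WT lungs. At least a 2-fold rise besides the call was met by 51 of the 55 in CKO lungs and 55 in WT lungs, against 8.25% and 12.1% of all tested genes. Every CRE library lay above every PBS library of its genotype for all 55 genes, a separation upward seen for 24.3% of tested genes in CKO and 34.4% in WT lungs.

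Without CKO_CRE replicate 2 all 55 were still called higher in CKO lungs by edgeR, with a median of 2.91-fold. The fold of 3 genes was then over 1.5 times lower, at 3.9 for Cdk1, 3.7 for Cdc20 and 3.6 for Ube2c, against 5.94, 5.67 and 5.49 with all libraries.

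Summed over the 55 genes, CKO_CRE libraries held 1568, 2753 and 1768 CPM, against 695.6, 685.3 and 581.6 CPM in CKO_PBS. WT_CRE libraries held 2610, 2589 and 2370 CPM, against 580.5, 644.8 and 731.4 CPM in WT_PBS. The ratio of means was 3.1 in CKO and 3.87 in WT lungs, and the 55 genes took 0.203% ± 0.0589 of counts in CKO_CRE, 0.248% ± 0.0174 in WT_CRE, 0.066% ± 0.00709 in CKO_PBS and 0.0656% ± 0.00729 in WT_PBS (SD, n = 3 each). In whole lung, more cells in cycle and more RNA of these genes per cell cannot be told apart, nor can fewer cells and less RNA per cell.

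**Figure D1:**
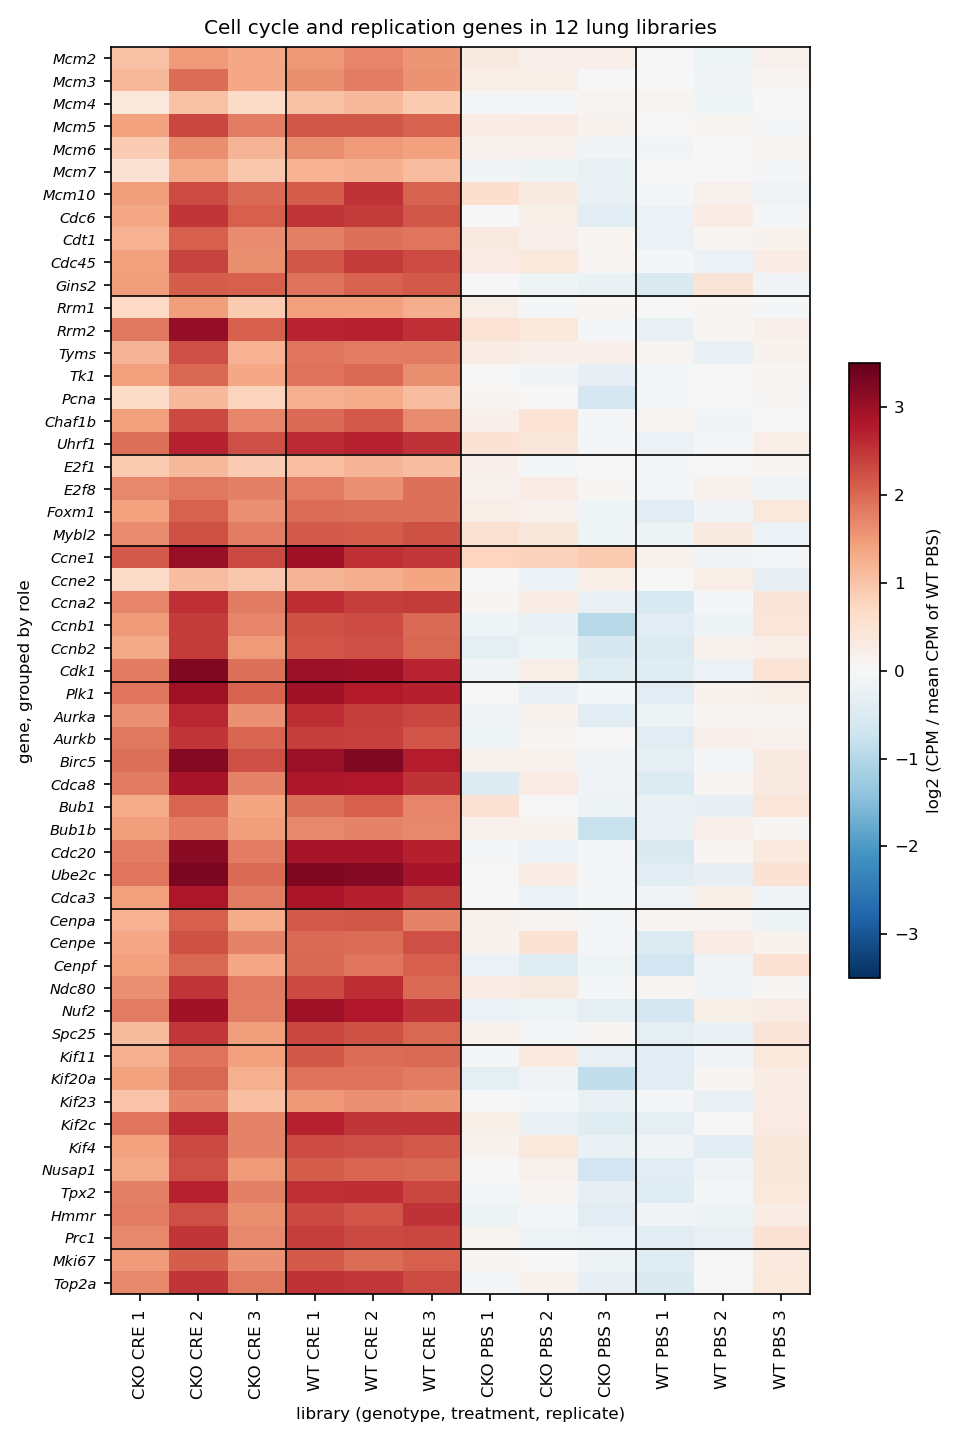
Level of each of the 55 genes (rows, grouped by role) in each of the 12 libraries (columns), as log2 of CPM over the mean CPM of WT_PBS, with red above and blue below that mean. All 6 CRE columns are red in every row, and CKO CRE 2 is the highest of the CKO_CRE columns for all 55 genes.

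Among the 11 origin licensing and helicase genes the median rise was 2.85-fold in CKO and 3.62-fold in WT lungs. Mcm3 and Mcm6 encode helicase subunits and had the highest level per kilobase of this group. Mcm3 had 61.2, 107 and 70.9 CPM in CKO_CRE against 32.6, 31.6 and 27.7 CPM in CKO_PBS, and 85.8, 95.8 and 82.5 CPM in WT_CRE against 27.9, 25.9 and 28.8 CPM in WT_PBS. Its rise was log2 1.38 ± 0.17 (SE, adjusted p = 0.000218 by edgeR) in CKO and log2 1.68 ± 0.17 (adjusted p = 2.51e-05) in WT lungs. Mcm6 had 70.8, 117 and 87.8 CPM in CKO_CRE against 42, 42.3 and 35.5 CPM in CKO_PBS, and 118, 108 and 103 CPM in WT_CRE against 35.9, 38.1 and 40.5 CPM in WT_PBS. The smallest rise of all 55 genes in both genotypes was that of another subunit, Mcm4. It had 43.5, 68.5 and 52.1 CPM in CKO_CRE against 31.7, 32.2 and 35.9 CPM in CKO_PBS (log2 0.72 ± 0.14, adjusted p = 0.00279 by edgeR). In WT lungs Mcm4 had 68.6, 73.1 and 63.4 CPM in WT_CRE against 36.1, 30.3 and 34.1 CPM in WT_PBS (log2 1.03 ± 0.14, adjusted p = 0.000138). Mcm7, a further subunit, had 47.9, 84 and 64.4 CPM in CKO_CRE against 31.6, 29.6 and 28.3 CPM in CKO_PBS, and 77.5, 80.4 and 71.7 CPM in WT_CRE against 34.2, 34 and 32.6 CPM in WT_PBS. Its rise of log2 1.13 ± 0.16 in CKO and 1.19 ± 0.16 in WT lungs was also among the smaller ones. All 6 MCM subunits of the helicase rose together in both genotypes, and their mean levels per kilobase of exon spanned 7.65 to 21.3 CPM in CKO_CRE, 9.34 to 23.5 CPM in WT_CRE, 3.61 to 9.27 CPM in CKO_PBS and 3.09 to 9.33 CPM in WT_PBS. The licensing factors Cdc6 and Cdt1, which load the helicase, rose 4.27-fold and 2.85-fold in CKO lungs and 5.2-fold and 3.62-fold in WT lungs.

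The 7 genes of nucleotide supply and the replication fork had a median rise of 3.13-fold in CKO and 3.6-fold in WT lungs. Pcna, the sliding clamp of DNA polymerase, had the highest level per kilobase of all 55 genes. It stood at 109, 150 and 118 CPM in CKO_CRE against 72.2, 69.1 and 45.4 CPM in CKO_PBS, and at 162, 170 and 145 CPM in WT_CRE against 65.9, 69.4 and 70.5 CPM in WT_PBS. Pcna rose 2.03-fold in CKO and 2.32-fold in WT lungs, less than most of the list. A near-identical copy of Pcna held counts equal to 4.21% of its own. Rrm2, the regulated subunit of ribonucleotide reductase, had 38.2, 89.7 and 45.3 CPM in CKO_CRE against 14.7, 13.7 and 10.1 CPM in CKO_PBS, and 67.5, 68.3 and 62.6 CPM in WT_CRE against 8.74, 10.9 and 12 CPM in WT_PBS. Its rise was log2 2.17 ± 0.28 in CKO (adjusted p = 0.00025 by edgeR) and log2 2.65 ± 0.28 in WT lungs (adjusted p = 3.01e-05). Rrm1, the partner subunit, rose 1.98-fold and 2.6-fold. Uhrf1, which directs maintenance of DNA methylation after the fork, had 40.5, 68.8 and 51.2 CPM in CKO_CRE against 15.2, 14 and 10.3 CPM in CKO_PBS, and 65.3, 68.6 and 61.7 CPM in WT_CRE against 9.2, 10.4 and 12.5 CPM in WT_PBS. It rose 4.06-fold in CKO and 6.11-fold in WT lungs.

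The 4 transcription factors rose by a median of 3.08-fold in CKO and 3.62-fold in WT lungs. E2f1, an activator of replication genes, had 25.2, 29.2 and 24.5 CPM in CKO_CRE against 15, 12.6 and 13.4 CPM in CKO_PBS, and 27.6, 30.2 and 28.1 CPM in WT_CRE against 12.6, 13.3 and 14 CPM in WT_PBS. Its rise of log2 0.94 ± 0.11 in CKO and log2 1.11 ± 0.11 in WT lungs was among the 3 smallest in both genotypes. Foxm1, an activator of mitotic genes, had 22.7, 35.2 and 25.8 CPM in CKO_CRE against 10, 9.33 and 7.59 CPM in CKO_PBS, and 32.7, 32 and 32.1 CPM in WT_CRE against 6.57, 7.86 and 11 CPM in WT_PBS. The CRE level of Foxm1 in CKO replicates 1 and 3 lay below all WT_CRE libraries and that of replicate 2 above them. Mybl2, which works with Foxm1 at mitotic promoters, and E2f8, a repressor that closes the E2F wave, rose 3.09-fold and 3.07-fold in CKO and 4.48-fold and 3.43-fold in WT lungs.

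The cyclins and Cdk1 differed widely among themselves. Cdk1, the kinase that starts mitosis, had the largest rise of the list in CKO lungs with all libraries, and Plk1, at 4.15-fold, without CKO_CRE replicate 2. Cdk1 had 23.7, 63.8 and 25.8 CPM in CKO_CRE against 6.2, 7.85 and 5 CPM in CKO_PBS (log2 2.57 ± 0.37, adjusted p = 0.000461 by edgeR). In WT lungs Cdk1 had 54.4, 53 and 42.8 CPM in WT_CRE against 5, 5.84 and 9.37 CPM in WT_PBS (log2 2.90 ± 0.37, adjusted p = 8.75e-05). Ccna2, the cyclin of S phase and early mitosis, had 28, 50.4 and 30.1 CPM in CKO_CRE against 8.73, 10.2 and 7.06 CPM in CKO_PBS, and 51.1, 45.4 and 46.1 CPM in WT_CRE against 5.91, 8.06 and 11.6 CPM in WT_PBS. Ccnb2, a mitotic cyclin, had 18.6, 41 and 21 CPM in CKO_CRE against 5.94, 6.79 and 5.04 CPM in CKO_PBS, and 34.5, 36 and 30.3 CPM in WT_CRE against 5.41, 8.31 and 8.72 CPM in WT_PBS. Its fold was nearly the same in both genotypes, at 4.53 in CKO and 4.5 in WT lungs. Ccne2, a cyclin of S phase entry, was at the low end with 6.55, 8.65 and 7.94 CPM in CKO_CRE against 4.13, 3.56 and 4.85 CPM in CKO_PBS (log2 0.88 ± 0.18, adjusted p = 0.00327 by edgeR). The groups did not overlap. In WT lungs Ccne2 had 9.34, 9.84 and 10.7 CPM in WT_CRE against 4.14, 4.78 and 3.36 CPM in WT_PBS.

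The 10 mitotic kinases, checkpoint and ubiquitin ligase genes had the highest median rise of any role, 4.83-fold in CKO and 6.53-fold in WT lungs. Ube2c, the ubiquitin-conjugating enzyme of the anaphase-promoting complex, had the largest rise of the list in WT lungs. It had 17.6, 47.1 and 19 CPM in CKO_CRE against 4.86, 5.73 and 4.66 CPM in CKO_PBS (log2 2.46 ± 0.36, adjusted p = 0.000526 by edgeR), and 46.4, 44.9 and 35.8 CPM in WT_CRE against 3.64, 3.98 and 6.84 CPM in WT_PBS (log2 3.14 ± 0.37, adjusted p = 5.01e-05). Cdc20, the activator of the same complex, had 38.3, 99.8 and 38.5 CPM in CKO_CRE against 10.9, 9.61 and 10.7 CPM in CKO_PBS, and 83, 82.4 and 74.1 CPM in WT_CRE against 7.83, 11.6 and 14 CPM in WT_PBS. CKO_CRE replicate 2 had more than the WT_CRE libraries for both genes, and the other 2 CKO_CRE libraries had less than all of them. Birc5, a subunit of the chromosomal passenger complex, had 17.7, 43.1 and 22.2 CPM in CKO_CRE against 5.22, 5.17 and 4.32 CPM in CKO_PBS, and 38, 43.8 and 31.5 CPM in WT_CRE against 3.69, 4.53 and 5.78 CPM in WT_PBS. The checkpoint genes Bub1 and Bub1b had the smallest rises of this role in one genotype each, 2.79-fold for Bub1 in CKO and 3.27-fold for Bub1b in WT lungs.

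The 6 centromere and kinetochore genes rose by a median of 3.47-fold in CKO and 4.39-fold in WT lungs. Nuf2, which helps bind microtubules at the kinetochore, had 14.4, 32.1 and 14.5 CPM in CKO_CRE against 3.62, 3.74 and 3.32 CPM in CKO_PBS (log2 2.51 ± 0.32, adjusted p = 0.000255 by edgeR), and 32.7, 29.1 and 24.2 CPM in WT_CRE against 2.73, 4.84 and 4.95 CPM in WT_PBS. Its complex partner Spc25 rose 3.38-fold in CKO and 4.59-fold in WT lungs. Spc25 had 9.79, 25.5 and 12.5 CPM in CKO_CRE against 5.01, 4.43 and 4.71 CPM in CKO_PBS, and 23, 21.3 and 18.5 CPM in WT_CRE against 3.64, 3.88 and 6.19 CPM in WT_PBS. Cenpa, the histone that marks centromeres, had 21.7, 39.6 and 22.9 CPM in CKO_CRE against 10.1, 9.98 and 8.84 CPM in CKO_PBS, and 41.3, 42.4 and 31 CPM in WT_CRE against 9.85, 9.97 and 8.19 CPM in WT_PBS. Spindle and cytokinesis genes, 9 in number, rose by a median of 3.97-fold in CKO and 4.71-fold in WT lungs. Tpx2, which nucleates spindle microtubules, had 35.1, 66.4 and 35 CPM in CKO_CRE against 10.1, 11 and 8.55 CPM in CKO_PBS, and 60.6, 62.1 and 52.1 CPM in WT_CRE against 7.68, 9.97 and 13.4 CPM in WT_PBS. Nusap1, a microtubule-bundling protein, had 18.9, 36.1 and 21.2 CPM in CKO_CRE against 7.49, 8.41 and 4.76 CPM in CKO_PBS, and 32.5, 31 and 30.1 CPM in WT_CRE against 5.81, 6.9 and 9.84 CPM in WT_PBS. It rose 3.68-fold in CKO and 4.16-fold in WT lungs.

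The proliferation antigen Mki67 and the topoisomerase Top2a had the highest mitotic-phase levels in CPM. Mki67 had 114, 174 and 121 CPM in CKO_CRE against 42.6, 40.7 and 35.8 CPM in CKO_PBS (log2 1.78 ± 0.19, adjusted p = 0.000105 by edgeR), and 180, 157 and 173 CPM in WT_CRE against 30.2, 39.8 and 50.9 CPM in WT_PBS (log2 2.08 ± 0.19, adjusted p = 1.53e-05). Top2a had 107, 189 and 121 CPM in CKO_CRE against 32.1, 36.4 and 27.6 CPM in CKO_PBS, and 192, 185 and 164 CPM in WT_CRE against 23.6, 33.7 and 43.1 CPM in WT_PBS. For both genes the PBS levels of WT replicates 1 and 3 were farther apart than those of the CKO_PBS libraries.

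**Figure D2:**
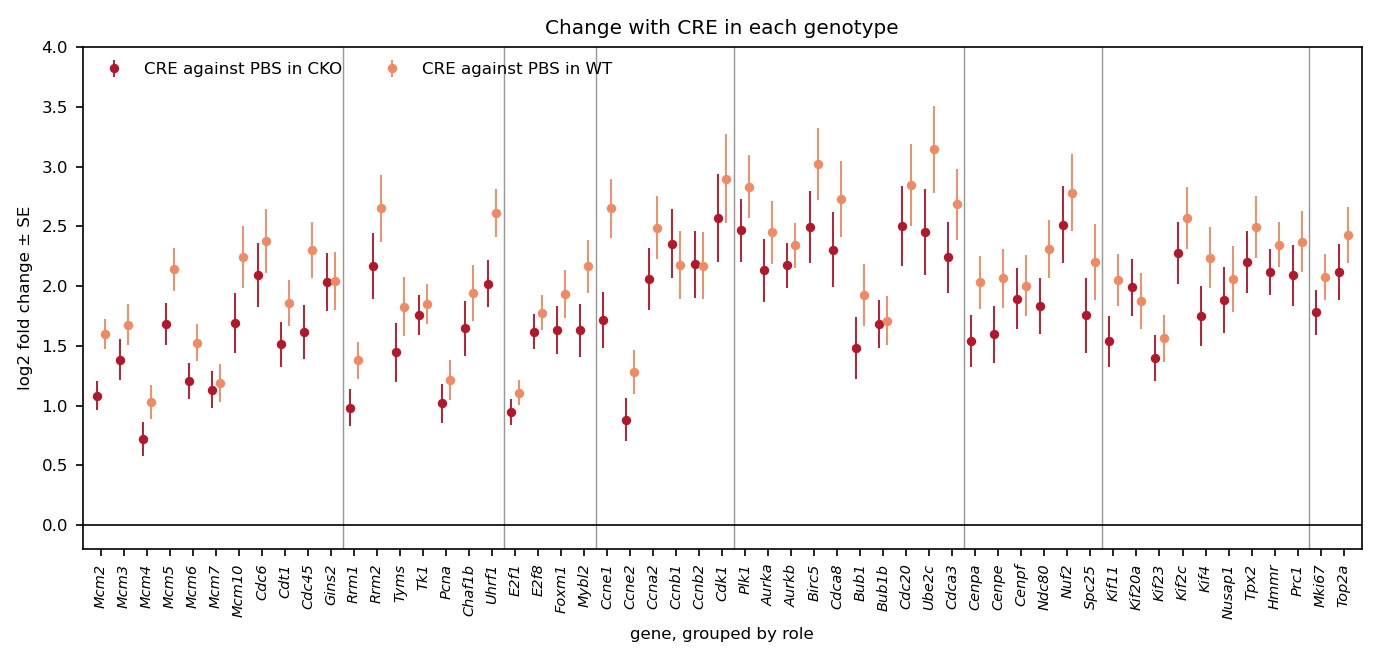
Log2 fold change with CRE (y axis, bars are SE) for each gene (x axis, grouped by role) in CKO lungs (dark red) and WT lungs (salmon). All points lie above 0, and the dark red point is the lower one for 52 of 55 genes.

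Mitotic genes had the larger median rises. The 27 mitotic genes had a median rise of 4.26-fold in CKO and 5.06-fold in WT lungs, against 2.96-fold and 3.61-fold for the 18 replication genes. The summed level of mitotic over replication genes was 1.09, 1.18 and 0.973 in CKO_CRE against 0.668, 0.718 and 0.673 in CKO_PBS. It was 1.23, 1.13 and 1.19 in WT_CRE against 0.588, 0.728 and 0.874 in WT_PBS. All 6 CRE libraries thus lay above all 6 PBS libraries in this ratio. Replication genes also had higher PBS levels, and across the 55 genes the log2 fold change correlated with the log2 PBS level per kilobase at Pearson's r -0.4 (Spearman's rho -0.269) in CKO and -0.407 (rho -0.292) in WT lungs. These are descriptions over 55 genes that share libraries and the PBS values themselves.

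Genes that surround the 55 in the same pathways did not all move. The counts and medians below are to be read against all tested genes, of which 20.6% rose and 18.5% fell with CRE in CKO lungs (median log2 0.00), and 28.6% rose and 28.4% fell in WT lungs (median log2 0.01). Of 39 further replisome genes 30 rose in CKO (median log2 0.85) and 34 in WT lungs (median 1.05), and the others were not called. Clspn, a fork-protection factor, rose by log2 2.04 ± 0.18 (adjusted p = 3.5e-05 by edgeR) and 2.40 ± 0.18 (adjusted p = 5.14e-06). Chaf1a, of the histone chaperone that follows the fork, rose 2.82-fold in CKO lungs. Of 42 further mitotic genes 39 rose in each genotype (median log2 1.78 in CKO, 2.04 in WT). Ckap2l and Aspm, both spindle proteins, rose 3.4-fold and 3.92-fold in CKO lungs, and the passenger complex scaffold Incenp and Ccnf, cyclin F, rose 4.23-fold and 5.21-fold in WT lungs. Kif18a, Pttg1 and Wee1 were not called, with changes from -0.22 to 0.40 on the log2 scale. Of 12 replication checkpoint and recombination genes 9 rose and 1 fell in CKO (median log2 1.46), and 10 rose and 1 fell in WT lungs (median 1.48). The chromatin remodeller Hells rose 5.59-fold in WT lungs. Atr, the replication stress kinase, fell by 0.36 on the log2 scale in CKO and by 0.66 in WT lungs (adjusted p = 0.0282 and 0.000592 by edgeR).

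Regulators upstream of replication were mixed. Of the 7 D-type cyclins and G1 kinases 3 rose and 2 fell in each genotype (median log2 0.10 in CKO, 0.18 in WT). Ccnd1 was at 212 ± 30.8 CPM in CKO_CRE and 244 ± 8.2 CPM in CKO_PBS, and at 192 ± 33.8 CPM in WT_CRE and 233 ± 18.6 CPM in WT_PBS, and was not called (adjusted p = 0.253 and 0.0939 by edgeR). Ccnd3 was not called either (log2 0.10 and 0.18), while Ccnd2 fell by 0.41 on the log2 scale in CKO and by 0.56 in WT lungs. Cdk2 rose 1.44-fold and 1.69-fold, Cdk4 rose 1.45-fold and 1.83-fold, and Cdk6 fell by 0.40 in CKO and 0.60 in WT lungs on the log2 scale. Of 8 CDK inhibitors 4 rose and 2 fell in each genotype (median log2 0.59 in CKO, 0.61 in WT). Cdkn1c and Cdkn1b, which hold cells out of cycle, fell by 0.89 and 0.41 on the log2 scale in CKO and by 1.20 and 0.48 in WT lungs. Cdkn2c and Cdkn2d, inhibitors of the cyclin D kinases, rose 1.94-fold and 1.65-fold in CKO and 2.18-fold and 2.23-fold in WT lungs. Cdkn2a rose 3.02-fold and 5.25-fold, at 2.73 ± 1.45 CPM in CKO_CRE and 4.25 ± 1.5 CPM in WT_CRE. Cdkn3, a phosphatase of Cdk1 that peaks with mitosis, rose 6.98-fold and 8.52-fold. The p53 target Cdkn1a was at log2 -0.43 ± 0.18 (adjusted p = 0.0777) in CKO and 0.07 ± 0.18 (adjusted p = 0.757) in WT lungs, and Cdkn2b was at log2 0.46 and 0.10 and was not called in either.

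Of the 12 genes of the RB family and the DREAM complex, which represses cell cycle genes in resting cells, 4 rose and 1 fell in CKO (median log2 0.06), and 6 rose and 3 fell in WT lungs (median 0.19). Tfdp1, the E2F partner, rose 1.52-fold and 1.81-fold, and its relative Tfdp2 fell by 0.80 in CKO and by 1.32 in WT lungs on the log2 scale. The pocket protein Rbl1 rose 1.45-fold in CKO lungs, and of the MuvB core Lin9 rose 2.36-fold and Lin52 fell by 0.63 on the log2 scale in WT lungs. Of the 4 other E2F genes 3 rose and 1 fell in CKO (median log2 0.41), and 2 rose and 1 fell in WT lungs (median 0.39). The repressor E2f7 rose 1.8-fold and 2.34-fold, the activator E2f3 1.43-fold and 1.72-fold, and the repressor E2f6 fell by 0.35 in CKO and by 0.45 in WT lungs on the log2 scale.

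Within single complexes the subunits differed. All 6 MCM genes rose in both genotypes, and 1 of 6 origin recognition genes rose in CKO and 2 of 6 in WT lungs, which is near the 20.6% and 28.6% of all tested genes. Orc1 rose 3.87-fold and 4.48-fold, at 3.03 ± 0.762 CPM in CKO_CRE against 0.778 ± 0.0447 CPM in CKO_PBS and 3.16 ± 0.411 CPM in WT_CRE against 0.713 ± 0.423 CPM in WT_PBS. Orc2, Orc3, Orc4 and Orc5 were not called, with changes from -0.18 to 0.07 on the log2 scale, and Orc6 was at log2 0.55 in CKO (adjusted p = 0.0533 by edgeR) and 0.71 in WT lungs (adjusted p = 0.011). Of 8 condensin subunits, which compact mitotic chromosomes, 6 rose in CKO and 7 in WT lungs. Smc2 rose 1.87-fold and 2.22-fold, Ncapd2 2.68-fold and 3.32-fold, and Ncapg 3.56-fold and 5.09-fold. The 5 cohesin subunits, which hold sister chromatids together, lay between -0.95 and 0.04 on the log2 scale. Stag2 fell by 0.72 in CKO and 0.95 in WT lungs on that scale, and Stag1 by 0.27 in WT lungs. Of 12 core subunits of the anaphase-promoting complex 5 rose in each genotype by at most 0.42 on the log2 scale, and Anapc1 fell in WT lungs. Of its regulators besides Ube2c and Cdc20, the inhibitor Fbxo5 rose 2.12-fold and 3.15-fold and the activator Fzr1 1.44-fold and 1.52-fold.

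**Figure D3:**
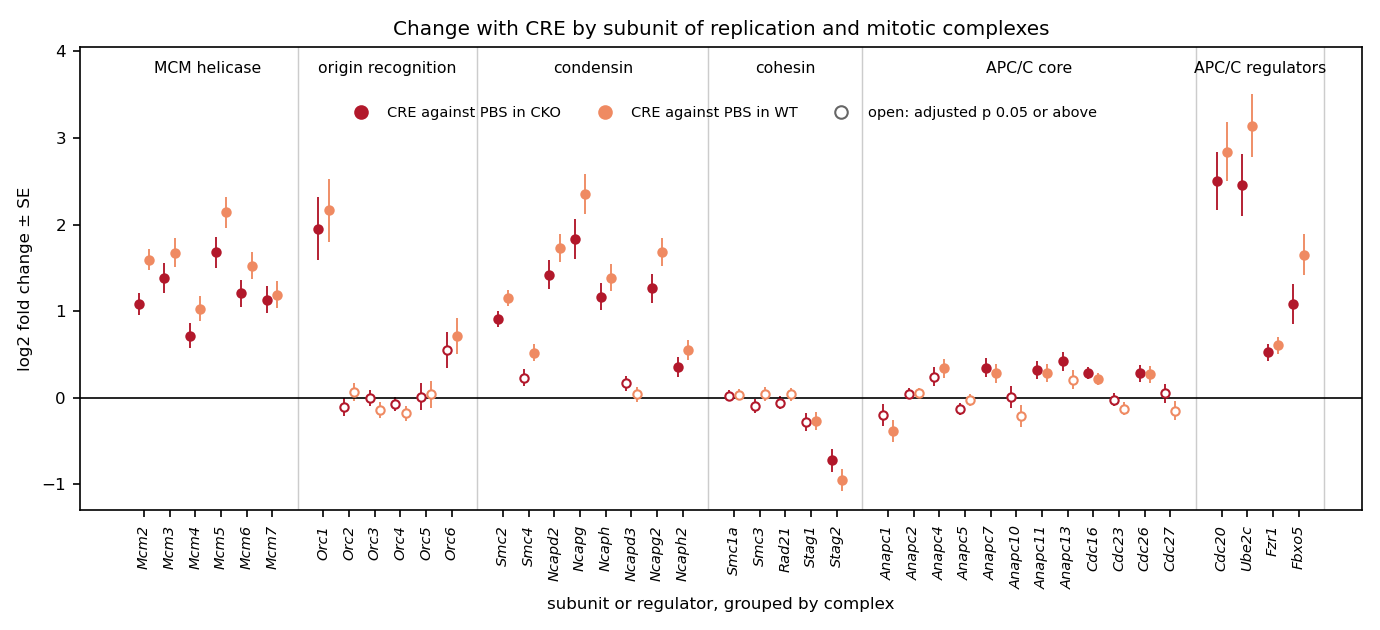
Log2 fold change with CRE (y axis, bars are SE) by subunit of 5 complexes and regulators of the anaphase-promoting complex, APC/C (x axis), in CKO lungs (dark red) and WT lungs (salmon); filled points were called. MCM subunits lie between 0.72 and 2.14, and cohesin subunits between -0.95 and 0.04.

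The 5 other genes whose log2 CPM followed the mean of the 55 most closely over the 12 libraries had Pearson's r from 0.9962 to 0.9987. They were the condensin subunit Ncapd2, the cytokinesis regulator Racgap1, the passenger complex scaffold Incenp, the spindle protein Tacc3 and the hexokinase Hk3. Hk3 averaged 49.8 CPM in CKO_CRE, 71.2 CPM in WT_CRE, 6.68 CPM in CKO_PBS and 5.59 CPM in WT_PBS. With 6 libraries high and 6 low in each case, such values describe 2 clusters of libraries.

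Promoters of the 55 genes are shown because replication and mitotic genes are known to carry different motifs. E2F sites are bound by E2F proteins, the cell cycle homology region (CHR) by the DREAM and MuvB complexes, and the CCAAT box by NF-Y. RefSeq windows on GRCm38.p6, from 250 bases before to 50 bases after the start, were found for 47 of the 55 genes. Windows of 200 bases follow for 7 genes, 2 of the helicase and 5 that act in mitosis, chosen after their values and motifs were seen to show how the letters differ, read 5′ to 3′ on the gene's strand, with motif letters in capitals.
Mcm5: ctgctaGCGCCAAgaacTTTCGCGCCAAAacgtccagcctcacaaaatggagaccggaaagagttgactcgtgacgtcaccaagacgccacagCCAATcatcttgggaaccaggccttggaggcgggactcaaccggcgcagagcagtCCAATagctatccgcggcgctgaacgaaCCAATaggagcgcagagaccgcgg
Mcm6: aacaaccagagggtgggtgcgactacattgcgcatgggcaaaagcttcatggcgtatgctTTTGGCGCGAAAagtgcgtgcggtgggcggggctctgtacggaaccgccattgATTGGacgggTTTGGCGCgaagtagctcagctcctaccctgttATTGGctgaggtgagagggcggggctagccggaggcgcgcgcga
Cdk1: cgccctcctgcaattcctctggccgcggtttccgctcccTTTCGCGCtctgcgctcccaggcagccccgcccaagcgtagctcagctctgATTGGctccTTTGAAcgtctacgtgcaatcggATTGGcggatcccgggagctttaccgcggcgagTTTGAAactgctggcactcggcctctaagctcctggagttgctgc
Ccnb2: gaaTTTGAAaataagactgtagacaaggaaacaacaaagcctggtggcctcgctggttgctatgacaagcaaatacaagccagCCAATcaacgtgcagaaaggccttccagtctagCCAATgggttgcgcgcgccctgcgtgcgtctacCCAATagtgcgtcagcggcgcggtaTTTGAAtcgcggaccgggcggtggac
Cdc20: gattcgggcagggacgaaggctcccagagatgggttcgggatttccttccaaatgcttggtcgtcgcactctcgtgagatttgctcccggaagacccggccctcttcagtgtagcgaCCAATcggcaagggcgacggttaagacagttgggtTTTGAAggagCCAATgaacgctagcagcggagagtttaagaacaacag
Ube2c: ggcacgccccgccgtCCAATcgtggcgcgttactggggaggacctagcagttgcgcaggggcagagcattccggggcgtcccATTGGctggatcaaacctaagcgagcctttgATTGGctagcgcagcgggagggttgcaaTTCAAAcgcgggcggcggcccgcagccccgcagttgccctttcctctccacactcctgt
Top2a: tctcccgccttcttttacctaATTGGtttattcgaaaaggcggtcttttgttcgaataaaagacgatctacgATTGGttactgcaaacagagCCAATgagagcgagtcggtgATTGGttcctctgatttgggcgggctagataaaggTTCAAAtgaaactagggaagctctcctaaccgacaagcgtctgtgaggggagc
They lie at chr8:75109339-75109538 on the plus strand (Mcm5), chr1:128359676-128359875 on the minus strand (Mcm6), chr10:69352883-69353082 on the minus strand (Cdk1), chr9:70421525-70421724 on the minus strand (Ccnb2), chr4:118437314-118437513 on the minus strand (Cdc20), chr2:164769759-164769958 on the plus strand (Ube2c) and chr11:99024160-99024359 on the minus strand (Top2a). Each runs from 170 bases before the start to 30 bases from it. In the helicase genes Mcm5 and Mcm6 the capitals are E2F letters and CCAAT boxes, and no CHR letters occur. In Ccnb2, Cdc20, Ube2c and Top2a they are CCAAT boxes and CHR letters. Cdk1 holds all 3 kinds, with CHR letters beginning at -71 and -15 counted from the start base as 0.

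Motif letters were searched on both strands of the whole windows. The CHR (TTTGAA or its reverse complement) was in 19 of 24 mitotic genes and 2 of 16 replication genes, against 20.2% of 27025 genes of the RefSeq table. The CCAAT box (CCAAT) was in 19 of 24 mitotic genes and 11 of 16 replication genes, against 41.1% of all genes. An E2F site (TTTCCCGC, TTTGGCGC, TTTCGCGC or TTTGCCGC) was in 0 of 24 mitotic genes and 7 of 16 replication genes, against 2.6% of all genes. The shorter E2F core (TTCCCGC or TTGGCGC), which overlaps some of the sites, was in 1 of 24 mitotic genes and 9 of 16 replication genes, against 7.79% of all genes. Over all 47 genes the counts were 24 for the CHR, 34 for CCAAT, 8 for the E2F site and 13 for the E2F core. The replication genes with E2F site letters were Mcm3, Mcm5, Mcm6, Mcm7, Cdc6, Cdt1 and Uhrf1. A match is a description of letters in a window, and the absence of one says only that these letters are not in it.

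**Figure D4:**
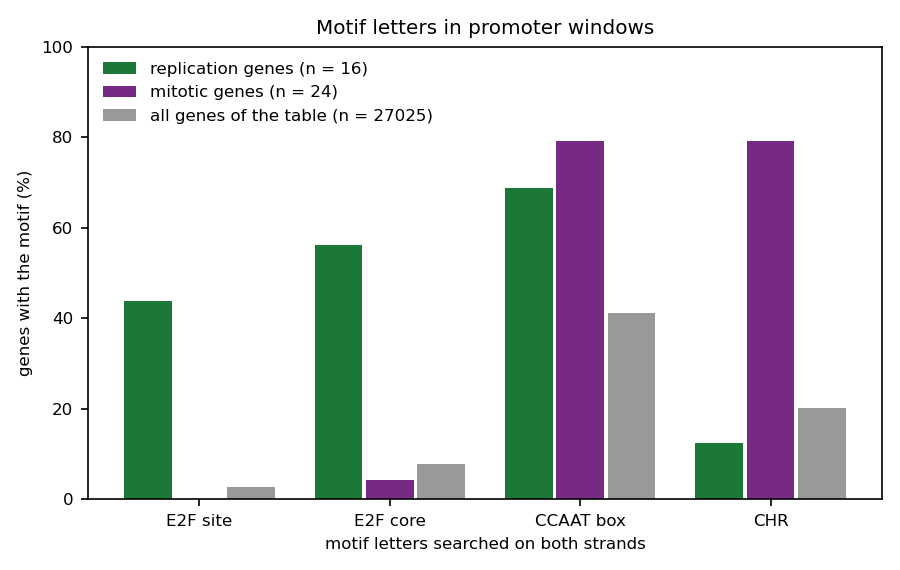
Share of genes (y axis, percent) whose promoter window holds each motif (x axis) among 16 replication genes (green), 24 mitotic genes (purple) and all 27025 genes of the table (grey). CHR letters are in 79.2% of mitotic and 12.5% of replication genes, and E2F site letters in 0% and 43.8%.

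Under CRE, the genotypes were compared next. All 55 genes had a lower fitted level in CKO_CRE than in WT_CRE (median log2 -0.31, from -0.60 for Ube2c to -0.01 for E2f8), where 48.7% of all tested genes were below 0 and their median was 0.01. Over the alternatives 47 to 55 were lower, the 47 coming without CKO_CRE replicate 1. With all 12 libraries 0 of 55 were called by edgeR, 4 at an unadjusted p below 0.05, and 0 by the DESeq2 Wald test, 6 unadjusted. Here and below, unadjusted counts have no share of all tested genes beside them and are not read as a result. Of all tested genes 0.916% were called in either direction, 0.366% lower and 0.549% higher. The spread within CKO_CRE was wide for these genes, with a median coefficient of variation of 31.3%, against 7.88% in WT_CRE. Over all tested genes it was 19.2% and 11.4%.

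The CKO_CRE libraries differed among themselves. In replicates 1 and 3, 54 and 52 of the 55 genes lay below all 3 WT_CRE libraries. In replicate 2, 30 lay above all of them, 22 within their range and 3 below. The same counts, and how often replicate 2 was highest of its group, are not given over all tested genes. Whether they are particular to the 55 genes or shared by much of the library was therefore not tested. Mcm2, Ccne2 and Kif11 were the 3 genes for which every CKO_CRE library was below every WT_CRE library, 5.45% of the 55, against 7.69% of tested genes separated in that direction. Limma-voom with library quality weights called 47 of 55 lower, 85.5%, against 20.8% of all tested genes called lower and 23% called higher. Its weights were 0.519, 0.122 and 3.47 for CKO_CRE replicates 1, 2 and 3, the 0.122 being the lowest of the 12 libraries. For WT_CRE they were 2.82, 0.736 and 0.541. In each of these groups a single library thus held by far the largest weight. Without CKO_CRE replicate 2, edgeR called 37 of 55 lower, 67.3%, against 12.7% of all tested genes called lower and 15.8% called higher, and the median was log2 -0.57. All 37 were also among the 47, but both fits draw little or nothing from CKO_CRE replicate 2, so this overlap is not separate support. Leaving out any other single library left 0 called by edgeR. Since replicate 2 was highest of its group for all 55, leaving it out or giving it a low weight lowers the group by construction. With 3 libraries a difference between the genotypes and one between single lungs cannot be told apart.

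**Figure D5:**
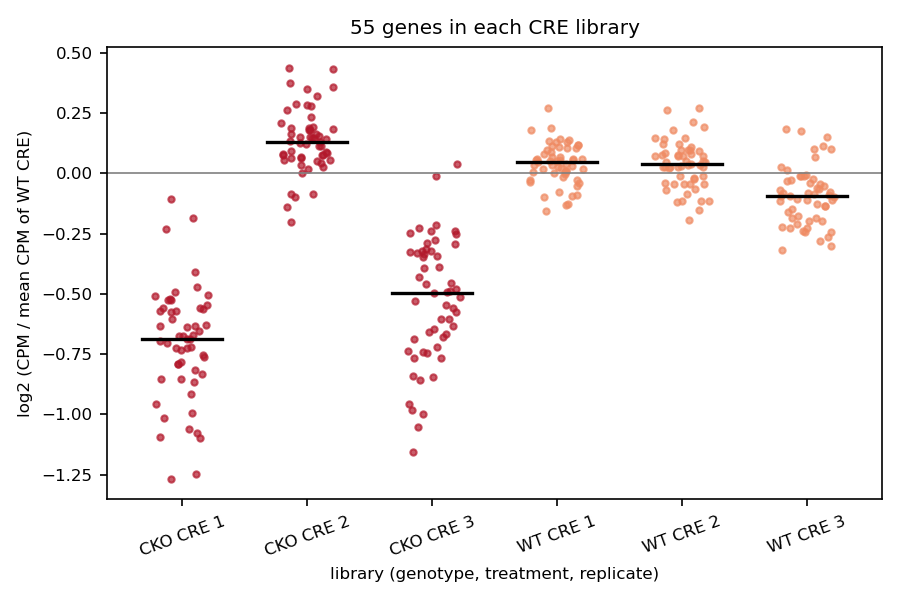
Level of the 55 genes (points) in each CRE library (x axis) as log2 of CPM over the mean CPM of WT_CRE (y axis), with the median as a bar. CKO CRE 1 and CKO CRE 3 lie mostly below 0, while CKO CRE 2 lies mostly above it, and the WT_CRE libraries centre near 0.

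The 3 genes with the smallest p in this comparison were Hmmr, Mcm2 and Kif11. Hmmr, a spindle protein, had 16.9, 23.5 and 15.1 CPM in CKO_CRE and 24.2, 22.4 and 28.1 CPM in WT_CRE (log2 -0.43 ± 0.18, adjusted p = 0.23 by edgeR). Kif11, a motor that separates spindle poles, had 28.1, 44.2 and 32 CPM in CKO_CRE and 53.6, 45.8 and 46.5 CPM in WT_CRE (log2 -0.48 ± 0.21, adjusted p = 0.242). Mcm2, a helicase subunit, had 43.8, 60.8 and 55.1 CPM in CKO_CRE and 61.6, 70.2 and 63.2 CPM in WT_CRE (log2 -0.29 ± 0.12, adjusted p = 0.236). Without CKO_CRE replicate 2 the changes were log2 -0.64 for Hmmr, -0.69 for Kif11 and -0.39 for Mcm2, with adjusted p from 0.01 to 0.0248. Ube2c reached log2 -1.20 ± 0.21 (adjusted p = 0.00183) and Cdc20 log2 -1.05 ± 0.16 (adjusted p = 0.000993) in that fit, while E2f8 was at log2 -0.05 ± 0.15 and Gins2, part of the replicative helicase, at log2 -0.23 ± 0.24, and neither was called.

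Under PBS the genotypes were close in summed level. The 55 genes summed to 654.2 ± 63.1 CPM in CKO_PBS and 652.2 ± 75.7 CPM in WT_PBS (SD, n = 3), and the median log2 change was 0.03. By edgeR 0 of 55 were called, 1 at an unadjusted p below 0.05, and by DESeq2 and limma-voom 0 were called, 1 and 2 unadjusted, where edgeR called 0.109% of all tested genes in either direction. Ccne1, a cyclin of S phase entry, had 3.2, 3.33 and 3.56 CPM in CKO_PBS and 2.07, 1.76 and 1.83 CPM in WT_PBS (log2 0.83 ± 0.25, adjusted p = 0.472 by edgeR). Its groups did not overlap. The same held for Mcm2 (26.8, 24.5 and 24.1 CPM in CKO_PBS and 21.6, 19.2 and 23.7 CPM in WT_PBS), Mcm5 and Tyms, also higher in CKO_PBS, and for Mcm7, lower there. These are 7.27% of the 55 upward and 1.82% downward, against 7.65% and 7.53% of tested genes. Kif20a, a cytokinesis motor, was at 5.12, 5.96 and 3.56 CPM in CKO_PBS and 4.9, 6.75 and 7.72 CPM in WT_PBS, which overlap. The WT_PBS lungs varied in these genes, with a median coefficient of variation of 18.3% (8.09% over all tested genes), against 11.2% (10.6%) in CKO_PBS. The lowest level of the 12 libraries was in WT_PBS replicates 1, 2 and 3 for 22, 11 and 6 genes. It was in CKO_PBS replicate 3 for 15 genes and in CKO_PBS replicate 2 for 1.

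Whether CRE acted differently in CKO and WT lungs was tested with an interaction term. The rise was smaller in CKO than in WT lungs for 52 of 55 genes, the exceptions being Ccnb1, Ccnb2 and Kif20a. The count moved both ways with single libraries. All 55 rises were smaller in CKO without CKO_PBS replicate 3 and also without CKO_CRE replicate 2. It was 49 without CKO_CRE replicate 1, CKO_CRE replicate 3 or WT_PBS replicate 1. CKO_CRE replicate 2 was highest of its group for all 55 genes, and CKO_PBS replicate 3 lowest of its group for 42. Leaving out either one thus shrinks most CKO rises by construction. Without CKO_CRE replicate 2 the differences were log2 -0.15 for Ccnb1, -0.43 for Ccnb2 and -0.14 for Kif20a. By limma-voom 53 were smaller, and Bub1b and Gins2 were larger. Among the 3220 genes called higher in both genotypes, the rise was smaller in CKO for 79.8%. By edgeR 0 of 55 were called, 3 at an unadjusted p below 0.05, and by DESeq2 0, 3 unadjusted, where edgeR called 0.0458% of all tested genes. Ccne1 had the largest difference of the 55, with a rise of 3.29-fold in CKO, to 8.29, 15.5 and 9.41 CPM in CKO_CRE, and of 6.28-fold in WT lungs, to 14.4, 11 and 10.4 CPM in WT_CRE (difference log2 -0.94 ± 0.33, adjusted p = 0.412). Mcm2 and Uhrf1 differed by log2 -0.51 ± 0.17 and -0.59 ± 0.27 (adjusted p = 0.411 and 0.483). Limma-voom called 20 of 55 lower, where 10.6% of all tested genes were called lower and 14.5% higher. Without CKO_CRE replicate 2, edgeR called 19 lower, all among the 20, where 6.11% of all tested genes were called lower and 8.72% higher. Limma-voom gave that same library its lowest weight, so the overlap of these fits is not separate support.

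Markers of several cell types moved with these genes. Counts of markers that rose or fell are to be read against all tested genes. With CRE, 20.6% of these rose and 18.5% fell in CKO lungs, and 28.6% rose and 28.4% fell in WT lungs. The 12 macrophage markers summed to 10100 to 13200 CPM in CKO_CRE, 11400 to 13200 CPM in WT_CRE, 1540 to 1930 CPM in CKO_PBS and 1400 to 1740 CPM in WT_PBS, and 10 of 12 rose in each genotype, with 1 that fell in WT lungs. The 6 B cell markers summed to 107, 293 and 161 CPM in CKO_CRE and to 320 to 478 CPM in WT_CRE, against 72.5 to 109 CPM in CKO_PBS and 79.1 to 132 CPM in WT_PBS, and 2 of 6 rose in CKO and 6 of 6 in WT lungs. The 8 T cell markers summed to 81.9, 189 and 177 CPM in CKO_CRE and 196 to 232 CPM in WT_CRE, against 69.3 to 133 CPM in CKO_PBS and 71.2 to 96.4 CPM in WT_PBS. Of the 8, 2 rose in CKO and 6 in WT lungs, against 20.6% and 28.6% of all tested genes. In CKO lungs the T cell sums of CRE and PBS libraries overlapped. CKO_CRE replicate 2 thus held the highest macrophage, B cell and T cell sums of its group. The 7 neutrophil markers summed to 160, 289 and 88.5 CPM and the 6 basal and KRT8 transitional epithelium markers to 411, 785 and 403 CPM in CKO_CRE replicates 1, 2 and 3, against 183 to 299 CPM and 529 to 591 CPM in WT_CRE. In CKO_PBS the neutrophil markers summed to 133, 259 and 61.6 CPM, which overlaps the CRE libraries, and in WT_PBS to 38.6 to 61 CPM. In CKO_CRE the eosinophil markers summed to 31.4, 56.1 and 30.6 CPM and the plasma cell markers to 687, 1160 and 924 CPM. WT_CRE held 45.3 to 76.8 CPM and 965 to 1130 CPM of them. The ciliated cell markers summed to 366, 203 and 323 CPM in CKO_CRE and 212 to 252 CPM in WT_CRE. In some other lists replicate 2 lay with its own group. The 7 markers of regulatory and type 2 T cells and ILC2 summed to 52.5, 65.1 and 57 CPM in CKO_CRE and 92.9 to 106 CPM in WT_CRE. The 7 fibroblast markers summed to 7140, 6900 and 6380 CPM in CKO_CRE and 8890 to 9630 CPM in WT_CRE, and the 7 dendritic cell markers to 137, 138 and 154 CPM in CKO_CRE and 166 to 206 CPM in WT_CRE. Il13, Il1rl1, Col1a1 and Col1a2 of these lists were called lower in CKO_CRE than in WT_CRE by edgeR, against 0.366% of all tested genes. The median log2 change in that comparison was -0.51 over the regulatory and type 2 T cell and ILC2 markers. It was 0.07 over the fibroblast markers, with 5 of 7 not called, and 0.33 over the dendritic cell markers, with 7 of 7 not called. The lower fibroblast and dendritic cell sums thus do not hold for most of those markers. CKO_CRE replicate 2 also held the lowest sums of the 6 club cell markers (2220, 1180 and 1650 CPM in CKO_CRE replicates 1, 2 and 3) and of the 7 endothelial markers (4040, 2390 and 3500 CPM). The WT_CRE libraries held 1160 to 1280 CPM of club cell and 2550 to 2890 CPM of endothelial markers, and 6 of 6 club cell and 5 of 7 endothelial markers fell with CRE in each genotype. No marker of the macrophage, T cell, B cell, club cell or endothelial lists was at 0 in a whole group. Krt5 of the basal and KRT8 transitional epithelium list was at 0 in CKO_CRE and WT_PBS, and Mpo of the neutrophil list in WT_PBS. The part of these cell types in the rise, and in the difference between CKO_CRE libraries, was not tested.

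Germinal centre B cell markers, 6 in number, summed to 146 to 156 CPM in CKO_CRE, 132 to 151 CPM in WT_CRE, 141 to 168 CPM in CKO_PBS and 157 to 169 CPM in WT_PBS. The CRE and PBS libraries overlapped in CKO lungs, all WT_CRE libraries lay below all WT_PBS libraries, and 2 of 5 tested markers rose and 1 fell in each genotype. The 6 erythroid precursor markers summed to 28.7 to 41.1 CPM in CKO_CRE, 28.7 to 54.0 CPM in WT_CRE, 35.1 to 40.2 CPM in CKO_PBS and 33.0 to 41.5 CPM in WT_PBS, and of 4 tested 1 rose and 1 fell in CKO and 2 rose and 1 fell in WT lungs. The 6 thymus precursor markers summed to 6.19 to 16.8 CPM over all libraries, with Rag2 at 0 in CKO_CRE, WT_CRE and CKO_PBS and Ptcra at 0 in CKO_CRE, CKO_PBS and WT_PBS. Of 2 tested, 1 rose in WT lungs.

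Sex differed along the CRE comparisons. With sex as a covariate 55 of 55 were called higher in both genotypes, with medians of log2 1.73 in CKO and 2.01 in WT lungs. The male CRE library of each genotype, replicate 1, stood at a median of log2 1.42 above the CKO_PBS mean in CKO and 2.14 above the WT_PBS mean in WT lungs. Some counts carry a further uncertainty, as 15 of the 55 genes overlap exons of a gene on the opposite strand and the library kit and counting are not stated to use strand. Among the genes given with per-library values, these are Mcm7, Ccna2, Ccne2, Cdc20, Ube2c, Nusap1 and Kif20a. Gins2 with 2758 bases and Kif20a with 1271 bases share the most.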

How the data were processed

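Counts per gene and library were deposited as 1 table of 54532 Ensembl identifiers by 12 libraries, and all columns were used. Per the labels' protocols, poly(A) RNA was made into libraries with a NEBNext Ultra kit. STAR, fastp and the mm10 build are named in the submitters' processing notes. The sources used here do not state how genes were counted, on which annotation, or with which strand setting. GENCODE M21 (GRCm38) gave symbols, positions and exon lengths for 54495 identifiers. Unmatched identifiers held at most 0.00642% of a library's counts.

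The main model was edgeR 4.0.16 under R 4.3.3 on these counts, with TMM factors, filterByExpr, 1 mean per group over 12 libraries and the quasi-likelihood F test. P was adjusted by Benjamini-Hochberg over 17473 tested genes, and genes were called below 0.05. The biological coefficient of variation was 17.4%. CPM is counts scaled by TMM library size, and log2 CPM used a pseudocount of 0.5. SE is the log2 fold change over the root of F. CRE was set against PBS within CKO and within WT, CKO against WT within CRE and within PBS, and the pair of responses against each other. Near-identical copies were sought with blastn 2.17.0 (98% over at least 200 bases).

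The 55 genes and the lists were chosen with earlier results of these data known, and no list was tested. Named were the 2 genes with the highest mean CPM per kilobase of each role, the 3 largest and the 3 smallest CRE changes, the 3 smallest p of each genotype contrast, called pathway genes of smallest p, all CDK inhibitors and D-type cyclins, and the 5 other genes closest to the mean of the 55. Other genes and complexes named were chosen after their values were seen. Some genes that this rule names are not reported here. Alternatives were DESeq2 1.42.0 size factors and Wald test, library totals, limma 3.58.1 voom with quality weights, no filter, the replicate number as a block, the compared groups alone, sex as a covariate, a 2-fold threshold, each library left out, and a promoter window of 150 bases.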

Additional observations from a re-analysis of the deposited data

How the results depend on the processing

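All 55 genes were called higher with CRE in both genotypes under every alternative run, except that 51 passed the 2-fold threshold in CKO lungs. The calls between genotypes depended on the test. Under CRE, 0 of 55 were called by edgeR, 47 lower by limma-voom, and 0 to 37 with 1 library left out, the 37 coming without CKO_CRE replicate 2. For the interaction these counts were 0, 20, and 0 to 19, the 19 again without that replicate. Under PBS 0 were called under each alternative. The replicate numbers were not taken as pairs, since the labels tie them to nothing shared and 4 of 18 same-numbered pairs correlated above 0.1 (from -0.0334 to 0.176). As a hint from the data, 8 of 12 libraries were closest to their own number. The 4 pairs above 0.1 each joined libraries of the same sex, so number and sex cannot be told apart in them. With the replicate number as a block the counts were 55 and 55 with CRE in CKO and WT, and 0 for both genotype comparisons and the interaction. In the window of 150 bases the E2F site was found in 4 of 47 genes and the E2F core in 8, against 8 and 13 in the whole window. The CHR was found in 23 and CCAAT in 30, against 24 and 34. Over all genes the shares in the shorter window were 1.45% for the E2F site, 4.51% for the E2F core, 9.23% for the CHR and 26.3% for CCAAT. By construction a shorter window cannot raise a count. Of the fold changes of the genes named by rule, 1045 values kept their side of the threshold and 12 passed it newly. Among uncalled differences of other genes the sign could turn, as for Gins2 under CRE (log2 0.04 by limma-voom) and for Ccnb1, Ccnb2 and Kif20a in the interaction. With library totals in place of TMM the median of all tested genes moved to 0.04 on the log2 scale for CKO against WT under CRE.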
